A study of Mus musculus with 14 samples.

Results

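The sodium-potassium pump of the plasma membrane moves sodium out of the cell and potassium in at the cost of ATP. A catalytic subunit does the transport, a beta subunit is needed to fold it and bring it to the surface, and a small membrane protein of the FXYD family can bind the pair and tune its affinity for ions. In the brain the pump restores the ion gradients that neurons spend on firing and that astrocytes use to take up glutamate and potassium. Described here are 6 genes of this pump among the 21568 gene symbols measured: the beta subunits Atp1b1, Atp1b2 and Atp1b3 and the FXYD regulators Fxyd1, Fxyd6 and Fxyd7. They were chosen by their measured levels in these cells, as genes that differ between cell classes, so their levels by class are given as a description with no test. All 6 were found, and they held 162503 of the 37453008 unique molecular identifiers (UMIs, single captured transcripts) in the kept cells.

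The cells came from tissue punches of the lateral hypothalamic area, a brain region that drives feeding and arousal, and were profiled by Drop-seq, in which each cell shares a droplet with a barcoded bead. All 14 animals were male wild-type C57BL/6J mice on a reverse light cycle with food and water freely available: 7 were labelled control and ate a chow matched in taste, and 7 ate a high fat diet. Each library held 1 mouse, and 4 mice of each diet were sequenced in pool 1 and 3 of each in pool 2. Neither age nor time on the diet is stated in these sources, and each group is described only by its diet. Replicate numbers follow the listing order within a diet and do not pair mice.

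Of 28410 barcodes, 15378 passed limits of 500 UMIs or more, 300 genes or more and no more than 20% mitochondrial UMIs, and 15164 cells were left after 214 suspected doublets were removed. The deposited totals ran from 147470 to 5611524 UMIs per mouse and kept cells from 49 to 1753. Only 3 barcode sequences occurred in more than 1 library, in 6 cells. Cell classes were named from marker genes, with all 15 pump genes of the Atp1 and Fxyd families left out of the clustering. Neurons numbered 6193 cells, oligodendrocytes 6175, astrocytes 913, oligodendrocyte precursors 641, microglia 447, endothelial cells 415 and mural cells (pericytes and smooth muscle of vessels) 256. The summed marker list of each of the 5 main classes was highest in its own class, but the endothelial and mural classes held some of each other's markers: mural markers stood at a median of 5026 CPM (UMI counts scaled to a common total per sample and class) in endothelial cells against 30471 in mural cells, and endothelial markers at 5815 in mural cells against 26056 in endothelial cells. High fat diet replicate 1 and control replicates 1 and 2, all in pool 1, stood apart: 1 neuron subcluster held 16.2 to 24.0% of their neurons and 0 to 3.30% in the other 11 mice. That subcluster was picked as the one with the widest gap between these 3 mice and the others, so the gap is a description and no test.

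Levels are CPM of all UMIs of a class summed within a mouse, for mice with at least 10 cells of that class. Drop-seq counts transcript 3′ ends, so gene length does not enter and levels of different genes can be set side by side, apart from differences in capture. A CPM is a share of a cell's RNA, so a lower value cannot be told apart from more RNA of other genes.

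By the GENCODE annotation of GRCm38, Atp1b1 lies on chromosome 1 (164437109 to 164458355, minus strand), Atp1b2 on chromosome 11 (69599736 to 69605942, minus strand) and Atp1b3 on chromosome 9 (96332655 to 96364442, minus strand). Fxyd6 is also on chromosome 9 (45370185 to 45396159, plus strand). Fxyd1 (31051678 to 31057199) and Fxyd7 (31042513 to 31051467) are neighbours on the minus strand of chromosome 7 with 210 bases between them. The promoter windows of 4 of the genes, each with its highest mean level in a different class or, for Fxyd6, beside Atp1b1 in neurons, are shown so that the letters before these differently used starts can be compared. Each is a RefSeq window of 300 bases on GRCm38.p6 from 250 before to 50 after the start, 5′ to 3′ on the gene's strand. Capitals mark the GC box GGGCGG, the CCAAT box and the TATA motif TATANA on either strand.
Atp1b1, chr1:164458306-164458605, minus strand: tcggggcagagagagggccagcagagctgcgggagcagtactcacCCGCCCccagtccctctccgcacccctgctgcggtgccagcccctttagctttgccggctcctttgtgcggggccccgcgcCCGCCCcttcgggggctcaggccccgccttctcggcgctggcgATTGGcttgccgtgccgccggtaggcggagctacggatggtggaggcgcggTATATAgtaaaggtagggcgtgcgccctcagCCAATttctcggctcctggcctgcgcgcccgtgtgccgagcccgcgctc
Atp1b3, chr9:96364382-96364681, minus strand: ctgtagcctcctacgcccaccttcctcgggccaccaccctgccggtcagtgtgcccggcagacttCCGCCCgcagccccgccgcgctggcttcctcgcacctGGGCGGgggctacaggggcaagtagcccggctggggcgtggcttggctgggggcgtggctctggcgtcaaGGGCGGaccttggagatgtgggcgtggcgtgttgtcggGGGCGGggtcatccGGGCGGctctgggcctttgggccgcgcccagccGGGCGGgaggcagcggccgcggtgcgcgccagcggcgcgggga
Fxyd1, chr7:31054804-31055103, minus strand: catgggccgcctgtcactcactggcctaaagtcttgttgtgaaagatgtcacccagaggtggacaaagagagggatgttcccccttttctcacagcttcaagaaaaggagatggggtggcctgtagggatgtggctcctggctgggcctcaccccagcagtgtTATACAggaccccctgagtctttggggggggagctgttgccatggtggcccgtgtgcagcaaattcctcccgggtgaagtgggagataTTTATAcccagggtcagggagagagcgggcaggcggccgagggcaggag
Fxyd6, chr9:45369935-45370234, plus strand: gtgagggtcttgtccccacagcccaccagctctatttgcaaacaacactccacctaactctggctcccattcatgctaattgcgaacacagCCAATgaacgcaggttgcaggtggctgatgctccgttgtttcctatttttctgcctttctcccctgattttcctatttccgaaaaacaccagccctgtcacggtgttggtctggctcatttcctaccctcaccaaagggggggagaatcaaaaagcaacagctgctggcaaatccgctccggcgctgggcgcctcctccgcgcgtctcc
The windows differed in base composition. The Atp1b1 window had 71% G and C and 31 CpG pairs, and the Atp1b3 window 76% and 34, against a median of 52.7% and 7 over 32841 promoter windows of this length. The Fxyd1 window had 58.7% and 6 and the Fxyd6 window 54.3% and 12. The Atp1b1 window held 2 GC boxes, 2 CCAAT boxes and a TATA motif that begins 30 bases before the start, the Atp1b3 window 6 GC boxes, the Fxyd1 window 2 TATA motifs and the Fxyd6 window 1 CCAAT box. Over all windows 35.7% held a GC box, 37.4% a CCAAT box and 24.7% a TATA motif, so these matches are common and are no evidence of binding. Atp1b3 has a further RefSeq start downstream, whose window (chr9:96363666-96363965) held none of the 3 motifs. The Fxyd1 window lies inside the annotated span of the gene.

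Atp1b1, the beta subunit best known from neurons and kidney, was the most abundant of the 6. In neurons its level over 14 mice had a lowest value of 3777, a median of 4608 and a highest value of 6366 CPM (mean 4667 ± 649, SD). Mural cells came next at 572 ± 205 CPM (SD, n = 10), with a range of 238 to 929 that did not reach the lowest neuron value. Oligodendrocyte precursors stood at 302 ± 67.4 CPM (SD, n = 11), endothelial cells at 209 ± 66.4 (SD, n = 12), astrocytes at 184 ± 118 (SD, n = 12), microglia at 117 ± 64.7 (SD, n = 12) and oligodendrocytes at 98.3 ± 54.1 (SD, n = 14). Below neurons the ranges of neighbours in this order overlapped throughout.

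**Figure D1:**
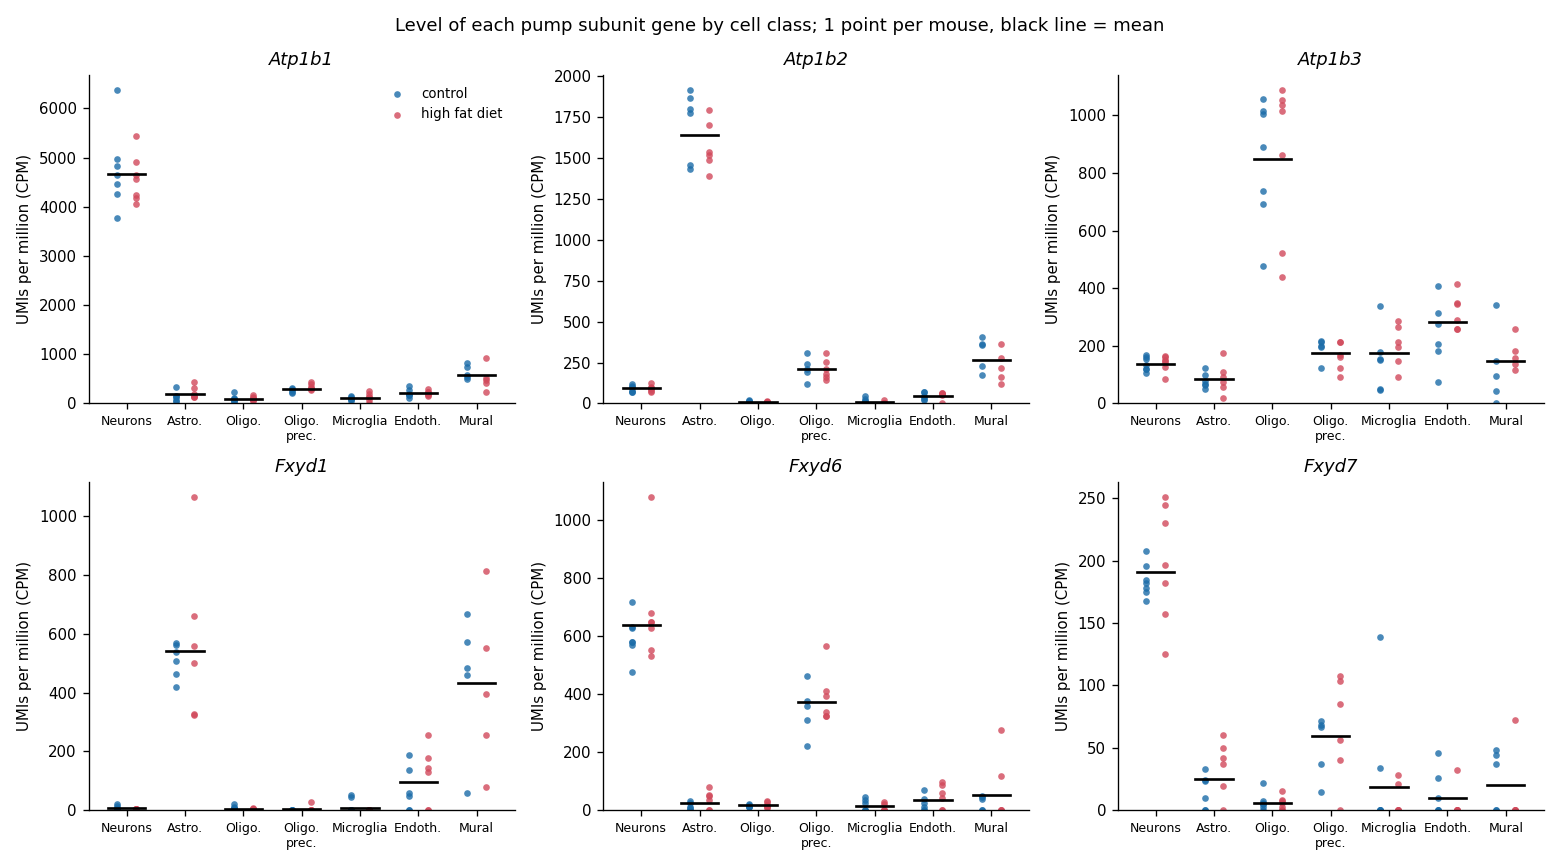
Level of each pump subunit gene (CPM, linear axes from 0 that differ between panels) in 7 cell classes. Each point is a mouse, blue for control and red for high fat diet, and the black line is the mean. Atp1b1, Fxyd6 and Fxyd7 stood highest in neurons, Atp1b2 in astrocytes and Atp1b3 in oligodendrocytes. Fxyd1 stood high in astrocytes and mural cells, whose ranges overlapped. The diets overlapped in each of these.

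Atp1b2, a beta subunit of glia that is also known as an adhesion molecule, was an astrocyte gene here. Its level in astrocytes ran from 1391 through a median of 1621 to 1913 CPM (mean 1639 ± 186, SD, n = 12), and no mouse had a level above 409 CPM in the other 6 classes. Mural cells had 266 ± 102 CPM (SD, n = 10) and oligodendrocyte precursors 211 ± 62.2 (SD, n = 11), with overlapping ranges. Neurons had 91.3 ± 18.3 CPM (SD, n = 14) and endothelial cells 47.2 CPM (range 0 to 71.0, n = 12). Microglia, at 10.4 ± 14.9 CPM (SD, n = 12), and oligodendrocytes, at 9.28 ± 5.95 (SD, n = 14), came last with overlapping ranges.

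Atp1b3, a beta subunit made in many tissues, had its highest level in oligodendrocytes, the myelin-forming glia. The lowest of 14 mice had 438 CPM, the median 949 and the highest 1087 (mean 849 ± 234, SD). Endothelial cells followed at 281 ± 96.5 CPM (SD, n = 12), with a highest mouse at 414, just under the lowest oligodendrocyte value. Microglia (176 ± 90.1, SD, n = 12), oligodendrocyte precursors (175 ± 44.0, SD, n = 11), mural cells (148 ± 98.8, SD, n = 10), neurons (138 ± 24.2, SD, n = 14) and astrocytes (83.8 ± 39.7, SD, n = 12) all had it, and their ranges overlapped. Its mean was at least 83.8 CPM in all 7 classes.

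The oligodendrocyte level of Atp1b3 was uneven between mice, with low values in both diets. The 3 mice that stood apart had 438, 476 and 693 CPM, while the other 11 ran from 521 to 1087 with a median of 1016. The difference was present inside single oligodendrocyte clusters: in the cluster led by Ptgds and Opalin the 3 mice had 454 to 648 CPM and 9 others 828 to 1174, and in the cluster led by Klk6 and S100b they had 228 to 593 against 670 to 939. In the cluster led by Sgk1 and Trim59 the ranges overlapped, at 555 to 929 and 557 to 1308. Without the 3 mice the mean over oligodendrocytes was 935 ± 173 CPM (SD, n = 11). The low mice outside these 3 were high fat diet replicate 7 (521 CPM from 30 UMIs) and control replicate 6 (736 CPM from 34 UMIs). All 3 mice that stood apart were in pool 1, which held 5 other mice, and the part of pool in these levels was not tested.

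Each of the 3 beta subunits can pair with a catalytic subunit, and their shares of the beta UMIs describe which beta subunit RNA a class holds. Neurons made almost only Atp1b1, with 95.3 ± 0.706% of 129040 beta UMIs (SD, n = 14) and a range of 94.2 to 96.4%. Astrocytes made 86.0 ± 6.22% Atp1b2, 9.60 ± 6.04% Atp1b1 and 4.43 ± 2.07% Atp1b3 (SD, n = 12). Oligodendrocytes made 88.0 ± 7.03% Atp1b3 and 10.9 ± 6.93% Atp1b1 (SD, n = 14), with the lowest Atp1b3 share, 71.4%, in high fat diet replicate 1. With suspected doublets removed, these 3 classes thus each had a different leading beta subunit in each mouse measured.

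In other classes the UMIs were spread over more than 1 beta subunit, in part at levels no higher than markers of other cell types, as given below. Oligodendrocyte precursors had 43.1 ± 6.98% Atp1b1, 31.4 ± 9.23% Atp1b2 and 25.5 ± 6.68% Atp1b3 (SD, n = 10). Endothelial cells had 54.1 ± 13.2% Atp1b3, 37.0 ± 11.4% Atp1b1 and 8.89 ± 3.13% Atp1b2 (SD, n = 6). Mural cells had 54.2 ± 6.76% Atp1b1, 27.3 ± 4.80% Atp1b2 and 18.5 ± 9.01% Atp1b3 (SD, n = 5). The vessel values rest on 190 and 153 beta UMIs from mice with at least 20 of them. When cells were instead assigned by their own marker UMIs, few mice reached 20 beta UMIs: endothelial cells of 2 mice had 72.5% Atp1b3 and 2.5% Atp1b2, and mural cells of 1 mouse had 64.3% Atp1b1 and 4.76% Atp1b3.

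**Figure D2:**
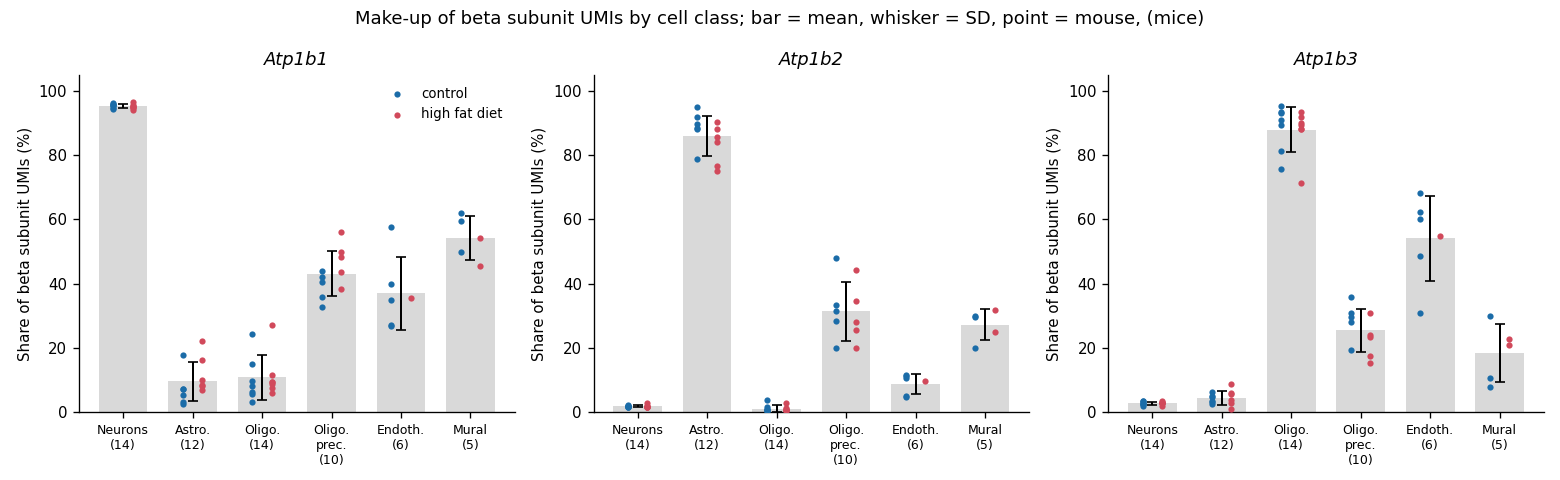
Share of Atp1b1, Atp1b2 and Atp1b3 among beta subunit UMIs (%) by class, for mice with at least 20 such UMIs; bars are means, whiskers SD, points mice (blue control, red high fat diet) and numbers in brackets mice. Neurons, astrocytes and oligodendrocytes each had a single leading subunit (95.3, 86.0 and 88.0%), while UMIs of precursors and vessel cells were spread over all 3, with Atp1b1 of precursors and endothelial cells and Atp1b2 of endothelial cells no higher than neuron and astrocyte markers there; microglia had too few UMIs to be shown.

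Droplets also catch free RNA from broken cells, so the low levels outside the main class were set beside the marker genes of that main class, measured the same way. In oligodendrocytes the summed neuron marker list stood at 3.28 ± 1.12% of its neuron level (SD, n = 14) and Atp1b1 at 2.07 ± 0.968%. In astrocytes the neuron list stood at 6.29 ± 2.86% and Atp1b1 at 4.14 ± 2.97% (SD, n = 12), and in endothelial cells at 6.75 ± 2.22% and 4.65 ± 1.75% (SD, n = 12). Precursors had Atp1b1 at 6.61 ± 1.56% beside 12.3 ± 2.08% for the list (SD, n = 11), and microglia 2.62 ± 1.54% beside 3.73 ± 1.94% (SD, n = 12). In these 5 classes mean Atp1b1 was under the neuron marker level, so its CPM there, and its share of beta UMIs given above, including the 43.1% in precursors and 37.0% in endothelial cells, cannot be told apart from background by these values. Mural cells as a class differed, with Atp1b1 at 12.4 ± 4.39% of its neuron level and the neuron list at 4.73 ± 2.00% (SD, n = 10). Their Atp1b1 was uneven between subclusters, at 1006 ± 300 CPM in mural cells led by Pln and Acta2 (SD, n = 5). Mural cells led by Kcnj8 and Atp13a5 had 220 ± 241 CPM, with a lowest mouse of 0 (SD, n = 9). The list was compared over the whole class, and whether Atp1b1 exceeded it in either subcluster was not tested.

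The same comparison for Atp1b2 gave 16.1 ± 5.37% of the astrocyte level in mural cells, where the astrocyte list stood at 0.996 ± 0.781% (SD, n = 10). Oligodendrocyte precursors had 13.1 ± 3.81% against 5.24 ± 1.54% (SD, n = 11). Endothelial cells, at 2.91 ± 1.41% against 2.82 ± 0.748%, and oligodendrocytes, at 0.578 ± 0.346% against 0.587 ± 0.268%, were at the level of the list (SD, n = 12 each), and neurons were above it at 5.28 ± 0.870% against 3.53 ± 0.558% (SD, n = 12). Atp1b3 was far above the oligodendrocyte list in each other class: it had 17.0 ± 3.18% of its oligodendrocyte level in neurons, where the list had 0.633 ± 0.695% (SD, n = 14), and 33.9 ± 17.0% in endothelial cells against 0.763 ± 0.435% (SD, n = 12).

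**Figure D3:**
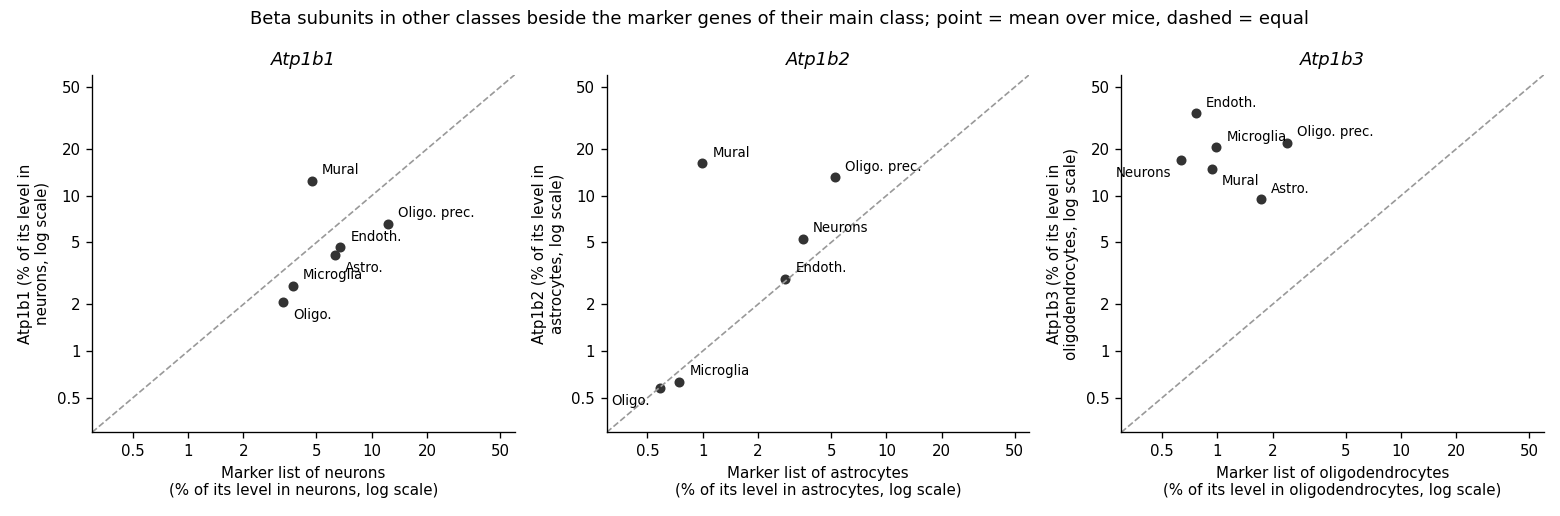
Mean level of each beta subunit in other classes (y axis) against the summed marker genes of its main class (x axis), both as a percentage of their level in that main class on log axes; points are means over mice and the dashed line marks equality. Points on or under the line carry no more of the subunit than of the markers, as for Atp1b1 in oligodendrocytes (2.07 against 3.28%). Atp1b1 and Atp1b2 in mural cells (12.4 and 16.1%) and Atp1b3 in all classes lie above it. Mural points are for the whole class, whose subclusters differed in Atp1b1.

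Fxyd1, phospholemman, best known as the pump's regulator in heart and muscle, had high levels in both astrocytes and mural cells. Astrocytes of 12 mice ran from 325 through a median of 524 to 1065 CPM (mean 541 ± 192, SD), and the highest was high fat diet replicate 4. Mural cells of 10 mice ran from 57.2 through a median of 471 to 813 CPM (mean 434 ± 244, SD), so the ranges of these classes overlapped, and astrocytes were higher in 5 of the 10 mice that had both. Endothelial cells had 95.2 ± 88.9 CPM (SD, n = 12), and every other class had 8.10 CPM or less on average. The mural level was 92.9 ± 69.4% of the astrocyte level, where the astrocyte marker list stood at 0.996% (SD, n = 10). The endothelial level depended on how cells were chosen. Assigned by their own marker UMIs, endothelial cells had 3.30 CPM (2 UMIs in 253 cells), mural cells 635 ± 309 CPM (SD, n = 8) and astrocytes 559 ± 213 (SD, n = 12). With at least 1000 UMIs per cell, endothelial cells had 72.2 ± 84.5 CPM (SD, n = 7). Mural cells then had 232 ± 242 CPM (SD, n = 3), from 13 UMIs and with a lowest mouse of 0, and astrocytes 657 ± 210 (SD, n = 5). The part of the mural markers noted above in the endothelial level was not tested.

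Fxyd6, phosphohippolin, was the main FXYD gene of neurons and of oligodendrocyte precursors. Neurons of 14 mice ran from 478 through a median of 627 to 1078 CPM (mean 639 ± 141, SD), and precursors of 11 mice from 220 through 360 to 564 CPM (mean 371 ± 89.0, SD). The ranges overlapped, yet neurons were higher in 11 of 11 mice. All remaining classes averaged 52.2 CPM or less. The precursor level was 61.3 ± 12.2% of the neuron level, while the neuron marker list stood at 12.3 ± 2.08% in the same cells (SD, n = 11); mature oligodendrocytes were at 2.63 ± 1.02%, under the list's 3.28% (SD, n = 14).

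Fxyd7, a brain FXYD protein, was lower and more confined. Neurons ran from 125 through a median of 183 to 251 CPM (mean 191 ± 33.9, SD, n = 14). Precursors followed at 59.2 ± 34.0 CPM (SD, n = 11) with a highest mouse of 107, under the lowest neuron value. Astrocytes had 24.8 ± 20.1 CPM (SD, n = 12), which was 13.7 ± 11.5% of the neuron level beside 6.29% for the neuron list. Among the 3 FXYD genes neurons made 76.2 ± 3.18% Fxyd6 and 23.0 ± 2.98% Fxyd7 (SD, n = 14), astrocytes 90.5 ± 6.03% Fxyd1 (SD, n = 9) and precursors 84.8 ± 5.97% Fxyd6 and 14.6 ± 6.37% Fxyd7 (SD, n = 8). Oligodendrocytes had 111 UMIs of these 3 genes in the 4 mice that reached 20, from 6175 cells in all.

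Single cells of the 7 classes showed the same division. After each cell was thinned to 500 UMIs, 84.8% of neurons had an Atp1b1 UMI against 4.84% of oligodendrocytes and 5.15% of microglia. Mural cells, at 19.9%, and precursors, at 14.2%, lay between. An Atp1b2 UMI was seen in 55.1% of astrocytes, 14.1% of mural cells and 0.447% of microglia. An Atp1b3 UMI was seen in 34.7% of oligodendrocytes, 11.8% of endothelial cells and 3.61% of astrocytes. Outside the 7 classes it was seen in 29.4% of 17 perivascular macrophages and 19.0% of 42 fibroblasts. Fxyd1 was seen in 20.7% of astrocytes, 19.9% of mural cells and 0.420% of neurons. Fxyd6 was seen in 26.6% of neurons, 15.8% of precursors and 23.8% of the 42 fibroblasts, and Fxyd7 in 8.48% of neurons. Unthinned shares were 98.1% for Atp1b1 in neurons at a median of 3433 UMIs per cell, 68.9% for Atp1b2 in astrocytes at 676 and 59.5% for Atp1b3 in oligodendrocytes at 1095.

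Within neurons Atp1b1 hardly differed between the main transmitter classes. Glutamatergic neurons, which excite their targets, had 4814 ± 1084 CPM and GABAergic neurons, which inhibit them, 4921 ± 600 (SD, n = 13 each), and glutamatergic neurons were higher in 4 of 13 mice. The FXYD genes leaned in opposite ways. Fxyd6 had 554 ± 80.1 CPM in glutamatergic and 667 ± 82.1 in GABAergic neurons (SD, n = 13 each), with glutamatergic neurons higher in 1 of 13 mice and a median ratio of 0.799. Fxyd7 had 218 ± 53.2 and 171 ± 35.4 CPM, with glutamatergic neurons higher in 11 of 13 mice and a median ratio of 1.26.

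Hypocretin neurons, which promote wakefulness, had less of most members than the larger neuron classes. In 6 mice with at least 10 such cells they had 3249 ± 241 CPM of Atp1b1, 341 ± 56.9 of Fxyd6, 63.7 ± 24.6 of Fxyd7 and 16.3 ± 13.4 of Atp1b2 (SD), from 13 Atp1b2 UMIs. Atp1b3 was not lower, at 178 ± 64.2 CPM (SD, n = 6). Their Fxyd6 values, 236 to 402 CPM, lay under all those of glutamatergic (464 to 741) and GABAergic neurons (505 to 821). Their Fxyd7 values, 29.5 to 96.8 CPM, lay under all glutamatergic values (114 to 306) and overlapped the low end of the GABAergic range (91.2 to 211), and their Atp1b1 values, 3071 to 3726 CPM, overlapped the glutamatergic range (3282 to 7850). Neurons with melanin-concentrating hormone reached 10 cells in 1 mouse only.

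Low Fxyd6 occurred in neuron subclusters with high and with low Atp1b1. A glutamatergic subcluster led by Nppc, a natriuretic peptide, and Trp73 had 108 ± 50.6 CPM of Fxyd6 and 7342 ± 133 of Atp1b1 (SD, n = 4). A GABAergic subcluster led by C1ql2 and Tpbg had 77.9 ± 58.1 CPM of Fxyd6, 6491 ± 662 of Atp1b1 and 18.9 ± 11.3 of Atp1b2 (SD, n = 5). Their highest Fxyd6 values were 165 and 140 CPM, while the lowest mouse in a GABAergic subcluster led by Slc30a3 and Meis2 had 609 (926 ± 226, SD, n = 8). The subclusters led by Nppc and C1ql2 joined high Atp1b1 with low Fxyd6, while the hypocretin subcluster, next lowest in mean Fxyd6 at 341 CPM, had the lowest mean Atp1b1 of the named subclusters.

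Fxyd7 was lowest in the hypocretin subcluster, at 63.7 CPM, and in the C1ql2 subcluster, at 72.6 ± 25.1 (SD, n = 5), both also among the 3 lowest for Fxyd6. It was highest in a GABAergic subcluster led by Tac2 and Lamp5, at 365 ± 96.5 CPM (SD, n = 6), and in a glutamatergic subcluster led by Trh, thyrotropin-releasing hormone, at 300 ± 70.7 (SD, n = 9). It was 88.8 ± 54.9 CPM in a GABAergic subcluster led by Pax6 and Sst (SD, n = 10), 88.7 ± 48.3 in a glutamatergic one led by Plce1 and Cngb3 (SD, n = 5) and 96.2 ± 23.7 in one led by Ddc and Slc18a2, genes of monoamine neurons (SD, n = 7). The highest mean of Atp1b1, 9273 CPM in a GABAergic subcluster led by Opcml, depended on the mouse: the 3 mice that stood apart had 4270 to 5033 CPM there and the other 6 had 9280 to 18427, so that subcluster is not described further. It is the subcluster by which those 3 mice were said above to stand apart. Its 422 cells stayed in the GABAergic class, and so in the GABAergic levels and diet comparisons.

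**Figure D4:**
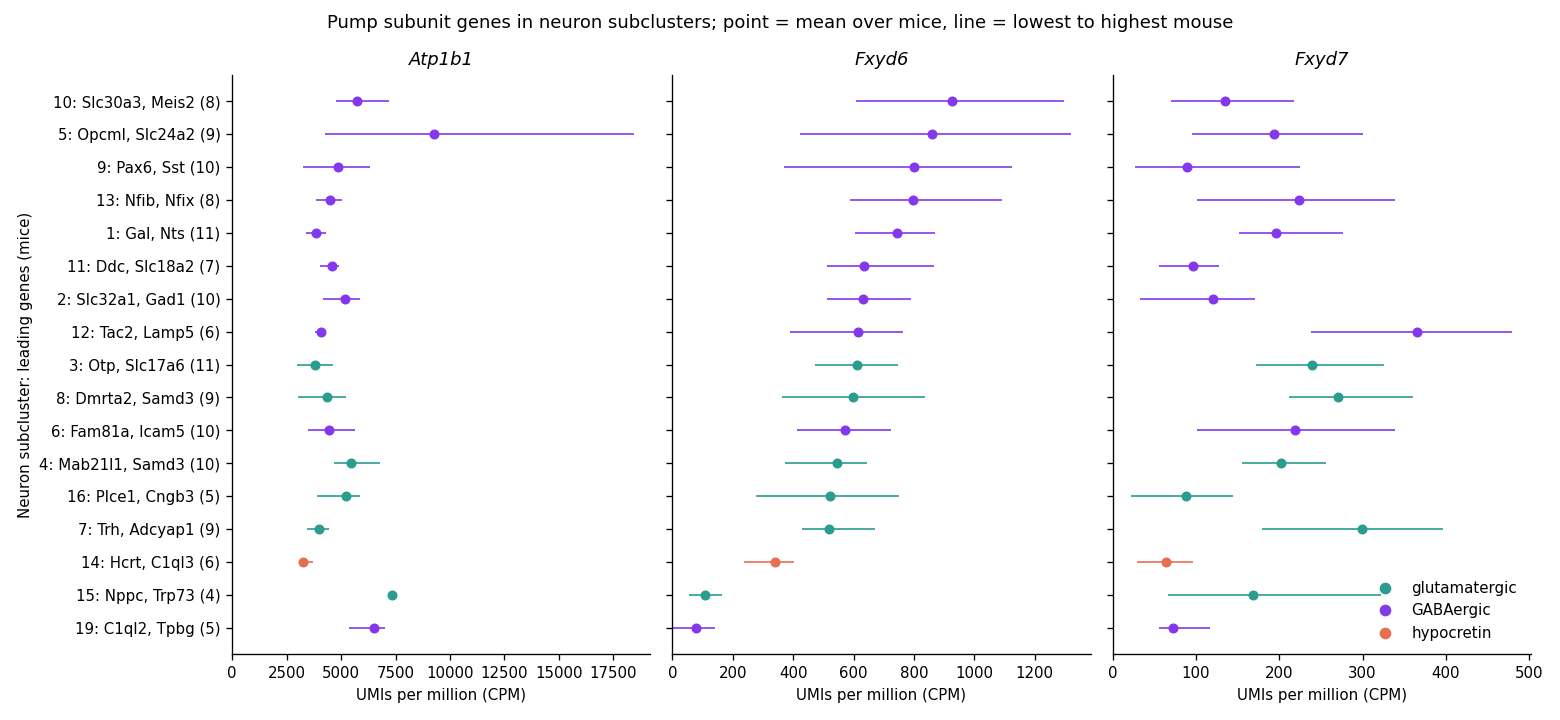
Atp1b1, Fxyd6 and Fxyd7 (CPM, linear axes from 0) in 17 named neuron subclusters, labelled by number and 2 leading genes with the number of mice in brackets; points are means and lines run from the lowest to the highest mouse. The subclusters led by Nppc and C1ql2 lie at the bottom for Fxyd6 (108 and 77.9 CPM) with Atp1b1 at 7342 and 6491.

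Mural cells led by Pln and Acta2, genes of contractile smooth muscle, had 1006 ± 300 CPM of Atp1b1 and 901 ± 282 of Fxyd1 (SD, n = 5), while mural cells led by Kcnj8 and Atp13a5, genes of pericytes, had 220 ± 241 and 95.8 ± 178 (SD, n = 9). Atp1b3 went the other way, at 39.0 ± 53.7 and 182 ± 119 CPM, and Atp1b2 was alike in mean, at 277 ± 74.5 and 298 ± 166. The lowest Fxyd1 value in the Acta2 subcluster, 621 CPM, was above the highest in the Kcnj8 subcluster, 508. Endothelial cells led by Gkn3 and Bmx had 126 ± 128 CPM of Fxyd1 and 95.4 ± 65.7 of Atp1b2 (SD, n = 5), and those led by Sema3c and Ctla2a had 8.36 ± 25.1 and 13.9 ± 28.6 (SD, n = 9). Each of these subclusters has 253 cells or fewer, and the part of the mutual vessel markers in these values was not tested.

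Listed genes of ion transport differed between the classes as well. Fxyd5, dysadherin, a further FXYD protein, led the listed genes of endothelial cells at 809 ± 245 CPM (SD, n = 12). Neurons had the calcium pump Atp2b1 at 883 ± 109 CPM, and the ankyrins Ank2 and Ank3, which anchor pumps and channels, at 432 ± 81.1 and 228 ± 32.9 (SD, n = 14 each). Astrocytes had the glutamate transporters Slc1a3 and Slc1a2 at 4885 ± 627 and 4790 ± 687 CPM and the sodium bicarbonate transporter Slc4a4 at 4223 ± 692 (SD, n = 12 each). Oligodendrocytes had the sodium, potassium and chloride cotransporter Slc12a2 at 834 ± 227, the inward rectifier channel Kcnj10 at 608 ± 182, Ank2 at 548 ± 95.8 and the potassium channel Kcna1 at 484 ± 96.9 CPM (SD, n = 14 each). Mural cells had the channel Kcnj8 at 856 ± 346 CPM, Atp2b1 at 440 ± 150 and the calcium pump Atp2a2 at 340 ± 159 (SD, n = 10 each), and endothelial cells Atp2b1 at 451 ± 148 and the kinase Sgk1 at 262 ± 127 (SD, n = 12 each).

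Over the mean levels of the 7 classes, 5104 genes were compared with each member by Pearson's r of log2(CPM + 10). The r values are a description over 7 classes that share the same libraries. Closest to Atp1b1 were Cox6b1, a subunit of cytochrome c oxidase (r = 0.992), Uchl1, Prkar1b, Wdr47 and Habp4. Closest to Atp1b2 were Farp1 (r = 0.977), Gpatch1, Nr2f1, Xpo1 and Fgfr1, a receptor of fibroblast growth factors. Closest to Atp1b3 were Spg20 (r = 0.950), Rnf7, Mtmr2, Taldo1 and Snx15, the weakest likeness of the 6. Closest to Fxyd1 were Prelp, a proteoglycan of the matrix (r = 0.982), Rarres2, Vcl, Itga7 and Lhfp, all highest in mural cells. Closest to Fxyd6 were Reep1 (r = 0.994), St8sia3, Pcdha2, Gabra3 and Tmem179, and closest to Fxyd7 Clstn3 (r = 0.995), Meg3, Gprasp1, Ly6h and Snhg11.

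The diets were compared in each class with counts summed per mouse, using edgeR's quasi-likelihood test with sequencing pool as a covariate and Benjamini-Hochberg adjustment over all genes tested. No member passed in any of the 7 classes tested, and neither did any other gene. The share of genes called was 0% in neurons (0 of 10759 tested), 0% in oligodendrocytes (0 of 6465), 0% in astrocytes (0 of 864), 0% in endothelial cells (0 of 832), 0% in mural cells (0 of 386), 0% in glutamatergic neurons (0 of 8914) and 0% in GABAergic neurons (0 of 9697). At an unadjusted p under 0.05 there were 136, 129, 34, 32, 23, 127 and 157 genes in that order, none of them a member. DESeq2 called 0 genes in 6 of these classes and 2 in GABAergic neurons, neither of them a member. All 6 members passed the filter on low counts in neurons, 5 in each of the glutamatergic and GABAergic classes, 2 each in astrocytes, oligodendrocytes and mural cells and 1 in endothelial cells.

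Atp1b1 in neurons had a lowest value of 3777, a median of 4641 and a highest value of 6366 CPM under control chow, and 4061, 4575 and 5433 under high fat diet (7 mice each). The diets overlapped across most of this range, and the log2 fold change, high fat diet over control, was -0.09 ± 0.12 (SE; edgeR adjusted p = 1.00). Atp1b2 in astrocytes ran from 1432 through 1789 to 1913 CPM in 6 control mice and from 1391 through 1529 to 1790 in 6 high fat diet mice. Only 1 high fat diet mouse was above the control mean, but the ranges overlapped and the change was -0.14 ± 0.16 (SE; edgeR adjusted p = 0.999). Atp1b3 in oligodendrocytes ran from 476 through 891 to 1057 CPM in control and from 438 through 1016 to 1087 in high fat diet mice (7 each), a change of 0.01 ± 0.20 (SE; edgeR adjusted p = 1.00). Within pools its difference was -0.19 in pool 1 and 0.18 in pool 2.

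Fxyd6 in neurons ran from 478 through 580 to 717 CPM in control and from 530 through 647 to 1078 in high fat diet mice, and its change was 0.09 ± 0.12 (SE; edgeR adjusted p = 1.00). Its within-pool differences had opposite signs, 0.29 in pool 1 and -0.12 in pool 2. Fxyd7 in neurons ran from 168 through 182 to 208 CPM in control and from 125 through 196 to 251 in high fat diet mice (change 0.05 ± 0.14, SE; edgeR adjusted p = 1.00). Fxyd1 in astrocytes ran from 419 through 524 to 567.7 CPM in 6 control mice and from 325 through 530 to 1065 in 6 high fat diet mice (change 0.18 ± 0.24, SE; edgeR adjusted p = 0.999). That value hung on high fat diet replicate 4, without which it was -0.08.

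In vessels the diets overlapped as well. Atp1b3 in endothelial cells ran from 75.7 through 241 to 408 CPM in 6 control mice and from 257 through 318 to 414 in 6 high fat diet mice, all 6 of them above the control mean, with a change of 0.30 ± 0.30 (SE; edgeR adjusted p = 0.954). Atp1b1 in mural cells ran from 490 through 572 to 818 CPM in 5 control mice and from 238 through 469 to 929 in 5 high fat diet mice (change -0.43 ± 0.34, SE; edgeR adjusted p = 0.794), and its within-pool differences were 0.22 and -0.91. Atp1b1 in astrocytes and endothelial cells and Atp1b2 and Atp1b3 in mural cells did not pass the filter and were not tested. Fxyd1 in mural cells had a change of -0.24 ± 0.46 (SE; edgeR adjusted p = 0.935), with within-pool differences of 0.59 and -0.74. Single mice moved both values: without high fat diet replicate 3 they were -0.68 for Atp1b1 and -0.48 for Fxyd1, and without high fat diet replicate 6 they were -0.25 and -0.012. The SE in vessel cells were 0.30 to 0.46, against 0.12 to 0.15 for the members at 100 CPM or more in neurons.

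Fxyd7 had changes of opposite sign in the transmitter classes, neither of which passed. Its glutamatergic level was 199 ± 47.9 CPM in 7 control and 239 ± 55.0 in 6 high fat diet mice (change 0.24 ± 0.17, SE; edgeR adjusted p = 1.00), and in GABAergic neurons at 182 ± 26.4 and 159 ± 43.0 (change -0.11 ± 0.16, SE; edgeR adjusted p = 1.00). The GABAergic value was -0.26 without high fat diet replicate 2 and -0.011 without high fat diet replicate 5, and the glutamatergic value ranged from 0.13 without high fat diet replicate 3 to 0.35 without control replicate 4. The difference between these was tested, after the values were seen, on the log2 ratio of glutamatergic over GABAergic level within a mouse. That ratio averaged 0.11 in control and 0.60 in high fat diet mice, a difference of 0.49 with a two-sided exact permutation p of 0.0589 and 0.235 after adjustment over the 4 members compared. The other changes in glutamatergic and GABAergic neurons, of Atp1b1, Atp1b3 and Fxyd6, lay between -0.05 and 0.09 with SE of 0.10 to 0.18. Within pools some differed in sign, as for Atp1b1 in glutamatergic neurons, at 0.19 in pool 1 and -0.20 in pool 2.

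**Figure D5:**
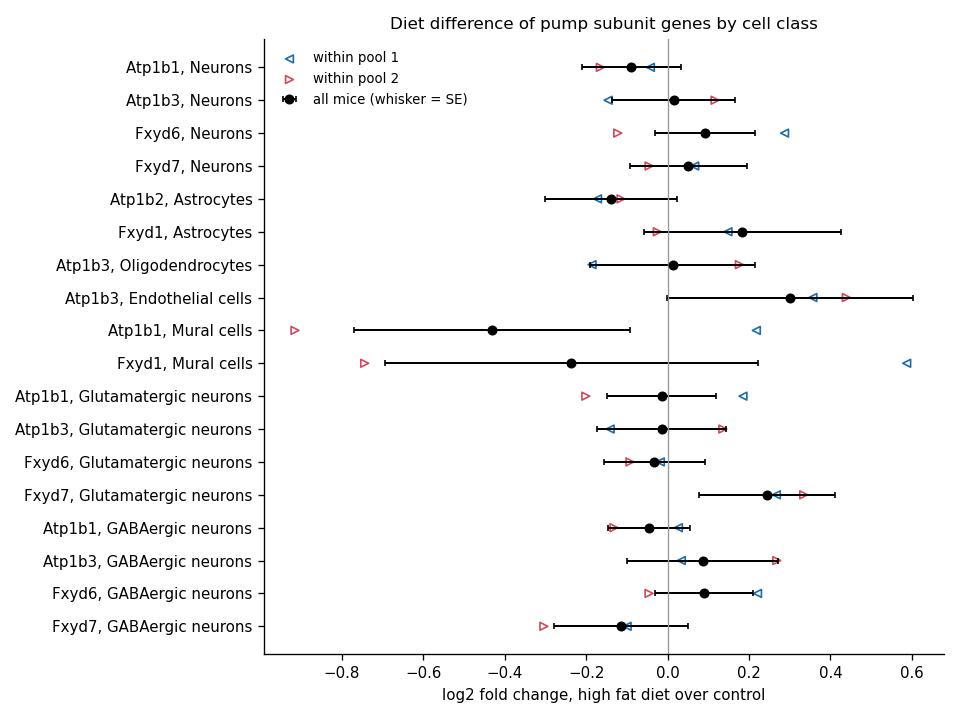
Log2 fold change, high fat diet over control, of each member with a median of at least 100 CPM that passed the filter, by class. Black points are the fit to all mice with SE whiskers and open triangles the differences within pool 1 and pool 2. None of the 18 passed. The pools lie on opposite sides of 0 in mural cells, and also for members in each other class except endothelial cells.

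Subunit make-up did not pass a test between diets either. In neurons, astrocytes and oligodendrocytes 8 shares above 5% in the median mouse could be compared, and none had an unadjusted p under 0.05 (two-sided exact permutation of diet means). The lowest p, 0.0794 (exact permutation; adjusted p = 0.496), was for Fxyd1 in astrocytes, as a share of the UMIs of Fxyd1, Fxyd6 and Fxyd7. It held 93.8 ± 4.64% of these in control (SD, n = 5) and 86.4 ± 5.31% under high fat diet (SD, n = 4), with differences of -7.27 and -7.83 percentage points within the pools. The CPM of Fxyd1 itself was not lower under high fat diet, at 510 ± 59.2 in control and 573 ± 275 under high fat diet (SD, n = 6 per diet). In astrocytes of these 6 mice per diet, more than the share rests on, genes that were highest in neurons had higher mean CPM under high fat diet, with overlapping ranges: Fxyd6 12.4 and 36.4, Fxyd7 14.98 and 34.5, and Atp1b1 139 and 229 in control and high fat diet, too low to pass the filter. Their part in the share was not tested. Atp1b2 in astrocytes held 88.6 ± 5.49% of beta UMIs in control and 83.3 ± 6.16% under high fat diet (SD, n = 6 per diet; exact permutation p = 0.143, adjusted p = 0.496). Atp1b1 in neurons held 95.4 ± 0.705% and 95.2 ± 0.747% (SD, n = 7 per diet; exact permutation p = 0.598), and Atp1b3 in oligodendrocytes 88.4 ± 7.25% and 87.5 ± 7.36% (SD, n = 7 per diet; exact permutation p = 0.818). The oligodendrocyte differences within the pools had opposite signs. Those of Atp1b3 were -5.41 percentage points in pool 1 and 5.01 in pool 2, and those of Atp1b1 were 5.76 and -5.13. Unlike the edgeR fits, the permutation did not take pool into account. Vessel classes had too few mice with 20 such UMIs for this test.

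Of the 14 sodium-gradient transporters all 14 were tested in neurons, where 0 were called in either direction and 2 had a positive change, with a median log2 fold change of -0.21 beside 0.00 for all genes tested. In oligodendrocytes 7 of them were tested, 0 were called and the median was -0.28 beside -0.01, and in astrocytes 5 were tested, 0 were called and the median was -0.14 beside 0.00. The smallest p among them belonged to Slc4a4 in astrocytes, at -0.32 ± 0.14 (SE; edgeR unadjusted p = 0.0217, adjusted p = 0.999). Fxyd5 in endothelial cells was at 0.46 ± 0.23 (SE; edgeR adjusted p = 0.954). Among the pump-binding proteins Sgk1 in oligodendrocytes was at -1.84 ± 0.88 (SE; edgeR adjusted p = 1.00). The other lists, of pump subunits, P-type cation pumps, pump-binding proteins and potassium channels, had 0 genes called in any class.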

How the data were processed

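Drop-seq libraries of 14 mice were deposited as tables of UMI counts per gene and cell barcode. Per the submitters' processing notes, the authors made these with tools that include STAR (version 2.4.2a), Picard (version 2.2.4) and bcl2fastq (version 2.18.0.12), on the build mm10/GRCm38. The rules for counting UMIs, choosing barcodes and using strand are not known from those notes, so reads of overlapping genes may not be separable, and Fxyd1, Fxyd7 and Fxyd5 lie side by side on 1 strand.

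Barcodes with at least 500 UMIs, 300 genes and no more than 20% mitochondrial UMIs were kept, and Scrublet removed 214 (expected rate 5%; mice with under 300 cells were not screened). Cells were clustered in scanpy 1.11.5 (2000 variable genes without Atp1 and Fxyd genes, 30 components, 15 neighbours, Leiden resolution 1) and named where at least 3 listed markers were 1.5-fold enriched and seen in 10% of cells. Neurons and vessel cells were clustered again; keeping 945 neurons unnamed, and splitting vessel cells, was decided after seeing the data. Levels are CPM of UMIs summed per mouse and class, with 10 cells or more. The members and gene lists were chosen with earlier results of these data known.

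Diets were compared with edgeR 4.0.16 (TMM, filterByExpr, quasi-likelihood, pool as covariate, threshold 0.05), tested on simulated data, and DESeq2 1.42.0 as an alternative. Each replicate is 1 mouse. Shares used mice with 20 or more UMIs and exact permutation without pool. Alternatives were no filter, no covariate, classes by each cell's marker UMIs (3 or more, 80% of 1 class), 1000 UMIs per cell, doublets kept and each mouse left out, or the 3 mice that stood apart. Leaving out unnamed neurons, leaving those 3 mice out of the share tests and comparing the transmitter classes by diet were added after seeing the data. Named were all members (diet tests at a median of 100 CPM), the 4 highest listed genes per class (some are not reported here), the listed genes with the smallest diet p, and the 5 genes most like each member.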

Additional observations from a re-analysis of the deposited data

Results flagged for a closer look

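In 44 groups of mice, 4 held a mouse far from the others of its diet by a test of the gap over the range, where chance gives about 1 in 20 groups, or 2.2 here. Atp1b1 in astrocytes was 327.788 CPM in control replicate 2, with the next control mouse at 151, and rested on 20 UMIs in 84 cells. Fxyd6 in neurons was 1077.88 CPM in high fat diet replicate 7, with the next at 680, and rested on 43 UMIs in 12 cells. Atp1b1 in control replicate 6 was 7850.25 CPM in glutamatergic neurons (21 cells, next mouse 5224) and 6435.23 CPM in GABAergic neurons (28 cells, next mouse 5138).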

How the results depend on the processing

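No member was called by diet under any alternative run. Counts of all genes called did move: with no filter on low counts 41 genes were called in neurons, 10 in GABAergic neurons, 5 in endothelial cells, 2 in oligodendrocytes and 1 in glutamatergic neurons, against 0 in each with the filter, and DESeq2 called 2 in GABAergic neurons. Without high fat diet replicate 5, 2 genes were called in GABAergic neurons and 1 in mural cells. In mural cells 2 were called without control replicate 3 and 1 without high fat diet replicate 4, and in endothelial cells 1 without high fat diet replicate 1. With doublets kept, Atp1b2 in astrocytes was 1372 CPM and 68.8% of beta UMIs, and Fxyd1 81.4% of the UMIs of the 3 FXYD members there. Across mice the astrocyte share of Atp1b2 was then as low as 31.5% and that of Atp1b1 as high as 57.9%, so Atp1b2 did not lead in every mouse. In the class of the 5 where each gene had its highest mean, the other mean levels and shares stayed within the SD between mice. Of the remaining values 7 levels and 12 shares moved by more and 92 and 70 did not. Leading vessel shares were among those that moved. With classes by marker UMIs, Atp1b3 was 72.5% of endothelial beta UMIs (2 mice) and Atp1b1 64.3% of mural ones (1 mouse). With 1000 UMIs per cell, Atp1b1 was 76.7% of mural beta UMIs (1 mouse).

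Some small diet changes switched sign, none past the threshold, and the cause was not tested. Without the 3 mice that stood apart, the log2 change was -0.0083 for Atp1b3 in oligodendrocytes, 0.12 for Fxyd1 in mural cells, and 0.0048 for Atp1b3 and 0.0053 for Fxyd6 in glutamatergic neurons. With no filter it was -0.0046 for Atp1b3 in endothelial cells and, in glutamatergic neurons, 0.018 for Atp1b1 and 0.00013 for Atp1b3. With classes by marker UMIs it was 0.019 for Atp1b1 in mural cells. With each mouse left out, the range was -0.074 to 0.12 for Atp1b3 and -0.049 to 0.14 for Fxyd7 in neurons, -0.078 to 0.33 for Fxyd1 in astrocytes and -0.071 to 0.15 for Atp1b3 in oligodendrocytes. In glutamatergic neurons it was -0.076 to 0.11 for Atp1b1, -0.096 to 0.055 for Atp1b3 and -0.089 to 0.0062 for Fxyd6, and in GABAergic neurons -0.073 to 0.0095 for Atp1b1 and -0.039 to 0.21 for Atp1b3. No paired analysis was possible because replicate numbers follow listing order and pair no mice. Classes by marker UMIs were not run for the transmitter classes, which those marker lists do not cover.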
